A study of Homo sapiens with 4 samples.

Results

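Of the 16490 genes with an FPKM value in MV4-11 cells, a human acute myeloid leukemia (AML) cell line, 10 are described here, namely PARP1, PARP2, PARP3, PARP4, PARP8, PARP9, PARP10, PARP12, PARP14 and DTX3L. They were picked by gene symbol, and the FPKM values (read fragments corrected for transcript length and for the size of the library) of their 22 RefSeq transcripts were summed per gene and library. Stable, puromycin-selected MV4-11 cells infected with a pLKO.1-puro lentivirus were compared in 2 libraries with the control hairpin sh-NC (control cells) and 2 libraries with sh-CEBPG#3, a hairpin against the bZIP transcription factor CEBPG (knockdown cells). These MV4-11 libraries hold only 1 CEBPG hairpin, so an effect of CEBPG loss and an effect of that hairpin cannot be told apart. The study also sequenced RNA of NB4 cells upon CEBPG knockdown, which was not analysed here. The study asked which genes change upon CEBPG knockdown, and separately blotted for PARP protein as a sign of apoptosis, whereas the values here are mRNA levels, on which protein cleavage leaves no trace.

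PARP enzymes take ADP-ribose from NAD and attach it to proteins. PARP1 and PARP2 bind DNA breaks and build chains of ADP-ribose that call in repair factors such as XRCC1, and PARP3 also acts at breaks but adds single units. Most of the remaining family adds single units. PARP9, PARP10, PARP12 and PARP14 are known as interferon-stimulated genes, and PARP9 acts as a heterodimer with DTX3L, a ubiquitin ligase. In the text below PARP1, PARP2 and PARP3 are called the DNA-repair PARPs, and PARP9, DTX3L, PARP14, PARP10 and PARP12 the interferon-linked genes. These labels were given to members only, so they do not cover PARP family genes outside the members.

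The RefSeq promoter windows (GRCh38.p14, from 250 bases before to 50 after a start site) of 8 of the 10 members, all but PARP4 and PARP10, were searched on both strands for 4 short motifs. The core of the interferon-stimulated response element, GAAANNGAA, was found in the windows of PARP9, DTX3L, PARP14 and PARP12, and 8.11% of all 35116 promoter windows hold it. It was not found in those of PARP1, PARP2, PARP3 and PARP8. PARP9 has 2 start sites in this table, and 1 of them lies 38 bases from the DTX3L start and points away from it, so these windows overlap by 137 bases and hold the same copy of the motif (chr3:122564332-122564340). The other PARP9 start, at 122564784, lies inside the DTX3L gene, and its window holds no copy. The stretches below are shown because they carry, or at the DNA-repair genes lack, that motif, which stands in capitals. Each runs 5′ to 3′ on the strand of its gene, from 60 bases before the start site.
DTX3L, chr3:122564278-122564357, plus strand: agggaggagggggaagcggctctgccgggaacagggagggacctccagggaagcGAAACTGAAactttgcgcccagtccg
PARP14, chr3:122680779-122680858, plus strand: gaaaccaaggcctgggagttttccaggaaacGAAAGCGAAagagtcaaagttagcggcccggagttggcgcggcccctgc
PARP12, chr7:140062932-140063011, minus strand: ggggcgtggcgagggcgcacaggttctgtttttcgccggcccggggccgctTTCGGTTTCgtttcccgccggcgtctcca
PARP1, chr1:226408074-226408153, minus strand: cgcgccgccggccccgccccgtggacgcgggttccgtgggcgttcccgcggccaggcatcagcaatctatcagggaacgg
PARP2, chr14:20343575-20343654, plus strand: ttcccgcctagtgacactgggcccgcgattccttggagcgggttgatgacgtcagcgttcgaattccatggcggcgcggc

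In PARP12 the motif reads on the opposite strand. A STAT site, TTCNNNGAA, was found in the windows of PARP14, at -40 to -32 from the start site next to the response element core at -29 to -21, and of PARP2 (-154 to -146), against 7.66% of all windows. A C/EBP site, TTGCNNAA (10.5% of all windows), was found in PARP8 only, and the C/EBP-ATF composite TGATGNAA (3.62% of all windows) in none of the members' windows. These are matches of letters and not measured binding.

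The FPKM totals of the 4 libraries lay between 364353 and 389766, and their depth is unknown, since FPKM values carry no counts and the low values fell on no common steps. Across genes, Pearson's r between libraries was 0.993 for the controls, 0.994 for the knockdown and 0.962 to 0.964 from one group to the other. The targeted gene, CEBPG, stood at 30.4 and 33.6 FPKM in control cells and at 19.2 and 17.1 FPKM in knockdown cells, 56.8% of the control level (log2 fold change -0.78, limma adjusted p = 8.88e-05). Genes averaging 0.5 FPKM or more over the libraries were compared as log2(FPKM + 1) with limma and Benjamini-Hochberg adjustment over all 12142 such genes, and all 10 members were among them. Of 10 myelomonocytic markers, CD14 and KIT were low (at most 1.09 FPKM in any library) and not tested. CD14 had 0.187 and 0 FPKM in control cells and 1.09 and 0.697 FPKM in knockdown cells. KIT had 0.187 and 0.121 FPKM and then 0 and 0.0235 FPKM. The summed level of the list was 769 and 834 FPKM in control cells and 3400 and 3240 FPKM in knockdown cells. Most of that rise was LYZ, with 567 and 610 FPKM and then 3130 and 2980 FPKM (log2 fold change 2.37, limma adjusted p = 1.4e-08). Of the 8 tested markers 5 were higher, against 18.5% of all genes tested, and none lower, against 23.8%. The T and B cell markers summed to 0.995 to 1.52 FPKM, none of the 4 erythroid markers was analysed here, and of the 2 epithelial or fibroblast markers tested KRT8 rose by 1.12 on the log2 scale to 6.26 and 6.19 FPKM (limma, adjusted p = 1.55e-05), while the more abundant KRT18 had a log2 fold change of -0.14 (limma, adjusted p = 0.261). The part of these marker changes in the results below was not tested. In bulk RNA, fewer cells of a type and less RNA per cell cannot be told apart.

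All 5 interferon-linked genes were higher in sh-CEBPG#3 cells, while of the 3 DNA-repair PARPs only PARP2 passed the test, with a small decrease. At an adjusted p under 0.05, 5 of the 10 members were higher, against 18.5% of all genes tested, and 1 of 10 was lower, against 23.8%. By the study's own threshold, a raw p under 0.05 with a log2 fold change beyond 1 in either direction, PARP9 and PARP14 were higher (2 of 10 members, against 2.36% of all genes) and no member was lower (against 1.05%). The groups did not overlap for 9 of the 10 members, 7 of them higher and 2 lower, which sets little apart here, since 31.5% and 40.2% of all genes also lay wholly above or below the control libraries. The median log2 fold change was 0.92 over the 5 interferon-linked genes, -0.18 over the 3 DNA-repair PARPs and -0.038 over all genes tested. The members were chosen with earlier results of these data known. These counts and medians therefore describe the members and do not test whether they differ from other genes. With 2 libraries per group an exact permutation test cannot give a two-sided p under 0.333, so the p-values rest on limma's variance model, and they measure only the spread between these libraries, which may be technical.

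**Figure D1:**
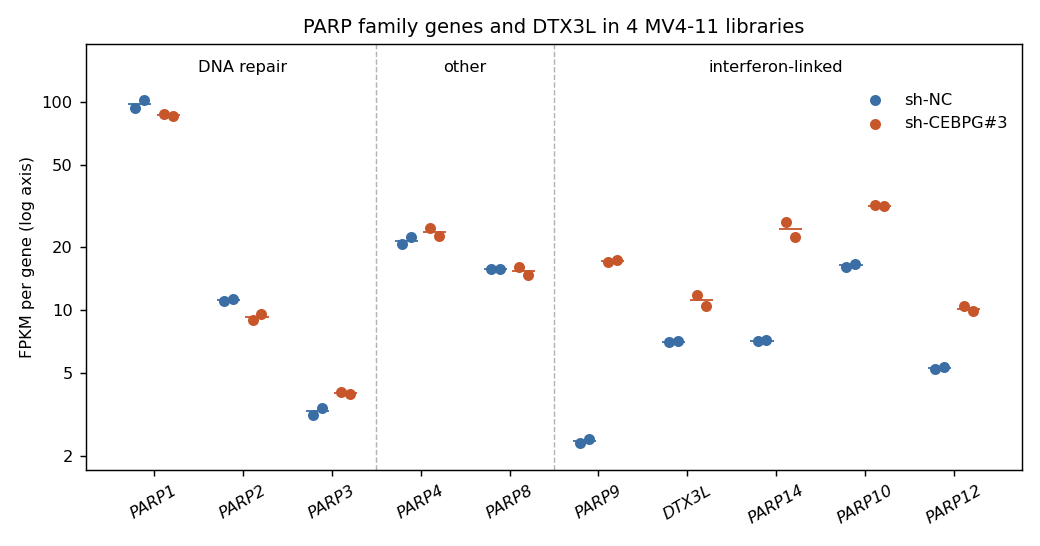
FPKM of each gene (log axis) in the 2 sh-NC libraries and the 2 sh-CEBPG#3 libraries, 1 point per library and a line at the group mean. The interferon-linked genes stand clear of their controls, PARP9 most of all with 17.0 and 17.4 FPKM against 2.31 and 2.41 FPKM, while PARP1 lies between 85.6 and 102 FPKM in all 4 libraries.

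PARP9, a macrodomain protein that works as a partner of DTX3L, changed most. It had 2.31 and 2.41 FPKM in control cells and 17.0 and 17.4 FPKM in knockdown cells. Both knockdown libraries lay far above both controls, and the libraries of a group were nearly equal. The mean went from 2.36 ± 0.0691 to 17.2 ± 0.239 FPKM (SD, n = 2 each), a 7.29-fold increase, with a log2 fold change of 2.44 (standard error 0.09, limma adjusted p = 4.14e-08). PARP9 ranked 25 from the largest rise among the 12142 genes tested. Its gene spans chromosome 3 from 122527924 to 122564784 (GRCh38.p14, as are the positions below).

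DTX3L (chromosome 3, 122564338 to 122575203), the partner of PARP9 in the heterodimer, rose far less. It had 7.0 and 7.12 FPKM in control cells and 11.8 and 10.5 FPKM in knockdown cells, a 1.58-fold increase without overlap. The log2 fold change was 0.59 (standard error 0.09, limma adjusted p = 0.000629), and its 95% interval of 0.39 to 0.79 lies wholly below that of PARP9, 2.24 to 2.63. Thus the ratio of PARP9 to DTX3L on the FPKM scale moved from 0.330 and 0.338 in control cells to 1.45 and 1.65 in knockdown cells. The less abundant partner mRNA in control cells was the more abundant one in knockdown cells.

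PARP14 (chromosome 3, 122680839 to 122730840), a large macrodomain PARP known as a coactivator of STAT6, had 7.07 and 7.20 FPKM in control cells and 26.6 and 22.5 FPKM in knockdown cells. The knockdown libraries differed from each other more than the controls did, yet both were above 3 times either control value. The increase was 3.44-fold, from 7.14 ± 0.0932 to 24.6 ± 2.93 FPKM (SD, n = 2 each), with a log2 fold change of 1.65 (standard error 0.10, limma adjusted p = 1.15e-06).

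PARP10 and PARP12 rose by nearly the same factor from different levels. PARP10 (chromosome 8, 143977158 to 144012764), which adds single ADP-ribose units and was first described as a partner of MYC, had 16.1 and 16.7 FPKM in control cells and 31.9 and 31.7 FPKM in knockdown cells (1.94-fold, log2 fold change 0.92, limma adjusted p = 1.11e-05). PARP12 (chromosome 7, 140023749 to 140062951), a zinc-finger PARP with antiviral activity, had 5.19 and 5.36 FPKM and then 10.5 and 9.85 FPKM (1.93-fold, log2 fold change 0.83, limma adjusted p = 6.36e-05). For neither gene did the groups overlap, and for both the 95% interval of the log2 fold change reached past 1, with 0.75 to 1.09 for PARP10 and 0.64 to 1.03 for PARP12.

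PARP1 (chromosome 1, 226360691 to 226408093), the main source of poly(ADP-ribose) at DNA breaks, was the most abundant member in every library. It had 93.6 and 102 FPKM in control cells and 87.1 and 85.6 FPKM in knockdown cells. All knockdown values were below the controls, but the change, to 88.3% of the control mean, did not pass after adjustment (log2 fold change -0.18, 95% interval -0.34 to -0.01, limma adjusted p = 0.076). This call depended on the scaling, as PARP1 was called lower with equal totals (adjusted p = 0.00498 in limma) and with quantile normalization (adjusted p = 0.00261), and also without sh-NC replicate 1 (adjusted p = 0.012).

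PARP2 (chromosome 14, 20343635 to 20357904), which shares the chain-building activity of PARP1, had 11.1 and 11.3 FPKM in control cells and 8.97 and 9.54 FPKM in knockdown cells. It fell to 82.6% of the control level without overlap (log2 fold change -0.25, standard error 0.08, limma adjusted p = 0.0354). The call is a narrow one. It was lost in 8 of the 12 alternatives, among them without each library in turn, where the log2 fold change ran from -0.29 to -0.21 and the limma adjusted p from 0.0617 to 0.168, and with the replicate block (adjusted p = 0.0832). PARP3 (chromosome 3, 51942363 to 51948867) was the least abundant DNA-repair PARP, with 3.13 and 3.40 FPKM in control cells and 4.04 and 3.94 FPKM in knockdown cells, and did not pass (log2 fold change 0.23, 95% interval 0.00 to 0.45, limma adjusted p = 0.0927). With quantile normalization it was called higher (adjusted p = 0.0305), while PARP1 was called lower under that scaling.

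The other 2 members stayed within narrow intervals around no change. PARP4 (chromosome 13, 24420931 to 24512778), the PARP of the vault particle, had 20.7 and 22.5 FPKM in control cells and 24.8 and 22.8 FPKM in knockdown cells (log2 fold change 0.13, 95% interval -0.05 to 0.32, limma adjusted p = 0.22), and passed only with quantile normalization (adjusted p = 0.0422). PARP8 (chromosome 5, 50665931 to 50846519), a little-studied member that adds single units, had 15.8 FPKM in both sh-NC libraries and 16.2 and 14.7 FPKM in knockdown cells. The groups overlapped, and the interval of its log2 fold change, -0.22 to 0.15, leaves out changes of the size seen in the interferon-linked genes.

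**Figure D2:**
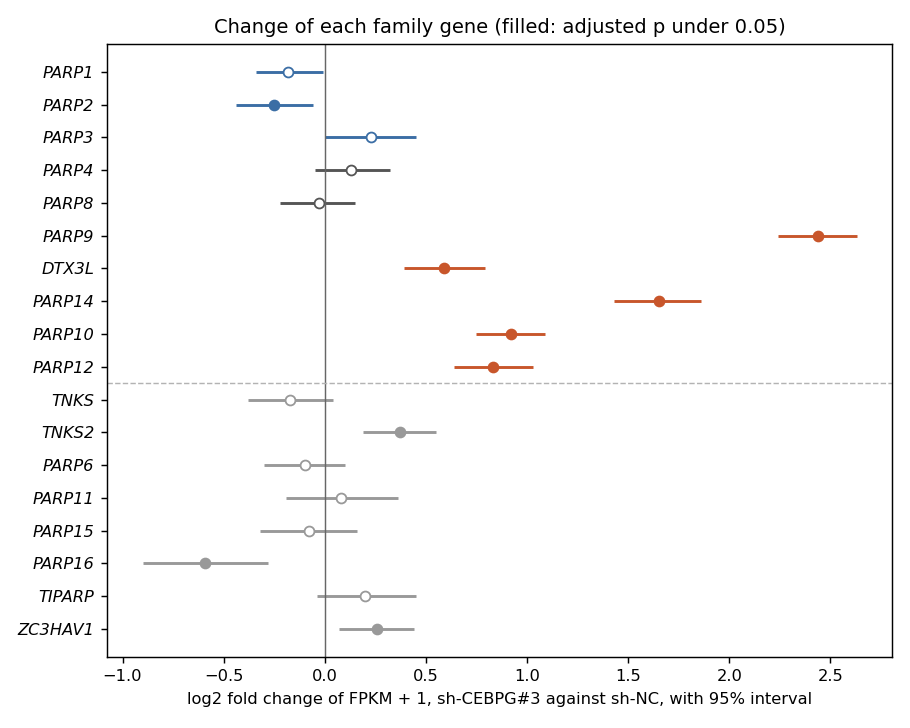
Log2 fold change of FPKM + 1 (sh-CEBPG#3 against sh-NC) with its 95% interval from limma for the 10 members, above the dashed line, and for 8 further PARP family genes. Filled points have an adjusted p under 0.05. The 5 genes called interferon-linked here, a label given to members only, lie between 0.59 and 2.44. Every other gene lies between -0.59 and 0.37.

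These changes altered the shares in the members' summed FPKM, which includes DTX3L and leaves out 8 further PARP family genes. Summed over the 10 members, FPKM was 182 and 194 in control cells and 239 and 228 in knockdown cells. PARP1 alone held 51.5% and 52.7% of that sum in the controls and 36.4% and 37.5% upon knockdown. The interferon-linked genes went from 20.7% and 20% to 41.0% and 40.2%, close to the 41.9% and 43.4% that the DNA-repair PARPs then held. PARP1 remained first in both groups. In sh-NC cells the order below it was PARP4, PARP10, PARP8, PARP2, PARP14, DTX3L, PARP12, PARP3 and PARP9, where only the neighbours PARP14 and DTX3L overlapped between libraries. In sh-CEBPG#3 cells it was PARP10, PARP14, PARP4, PARP9, PARP8, DTX3L, PARP12, PARP2 and PARP3, where PARP14 overlapped with PARP4 and DTX3L with PARP12. PARP9 went from the last place to place 5.

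The share of a gene's FPKM given to each RefSeq transcript was less stable than the sum. For PARP9, 6 transcripts are listed, and NM_001146105 held 79.5% and 0% of the gene in control cells and 37.8% and 74.7% in knockdown cells. NM_001146103 had 6.32 FPKM in the sh-CEBPG#3 replicate 1 library and 0.828 FPKM in the replicate 2 library. The sums nonetheless agreed, at 17.0 and 17.4 FPKM. For PARP8, NM_001178055 held 20.7% and 57.3% of the gene in control cells and 0% and 8.2% in knockdown cells, while NM_024615 went from 12.1 and 6.73 FPKM to 16.2 and 13.5 FPKM. Judged by that most abundant transcript alone, PARP8 would have a log2 fold change of 0.64, with a limma adjusted p = 0.143. For PARP3, NM_001003931 held 32.1% and 0% of the gene in control cells and 0% and 24.7% in knockdown cells. By its most abundant transcript PARP3 had a log2 fold change of 0.27 (standard error 0.22, limma adjusted p = 0.407). PARP10 was steadier, with 82.7% to 87.2% of its FPKM in NM_032789 in all 4 libraries, and so was PARP12, with 82.1% to 96.9% in NM_022750.

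PARP9, DTX3L and PARP14 lie close together on chromosome 3 (GRCh38.p14), with PARP15 between DTX3L and PARP14. Within 400 kb of the DTX3L start there are 13 protein-coding genes, a window set after the members' values were seen. Of these, 9 were tested, and PARP9, DTX3L and PARP14 were the 3 called, all higher. Over all genes tested, 18.5% were higher and 23.8% lower. The 3 are members whose rise was known when the window was set, so this count says nothing about the locus. PARP15, a further macrodomain PARP that starts 13.3 kb beyond the DTX3L start (chromosome 3 from 122577650 to 122639047), had 3.04 and 2.72 FPKM in control cells and 2.69 and 2.66 FPKM in knockdown cells (log2 fold change -0.08, 95% interval -0.32 to 0.16, limma adjusted p = 0.591). KPNA1 and HSPBAP1, the nearest tested genes on the outer sides, had log2 fold changes of 0.04 and 0.05 with adjusted p of 0.746 and 0.741 in limma. SLC49A4 lay under the filter, with 0.297 and 0.281 FPKM in control cells and 0.841 and 0.577 FPKM in knockdown cells.

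**Figure D3:**
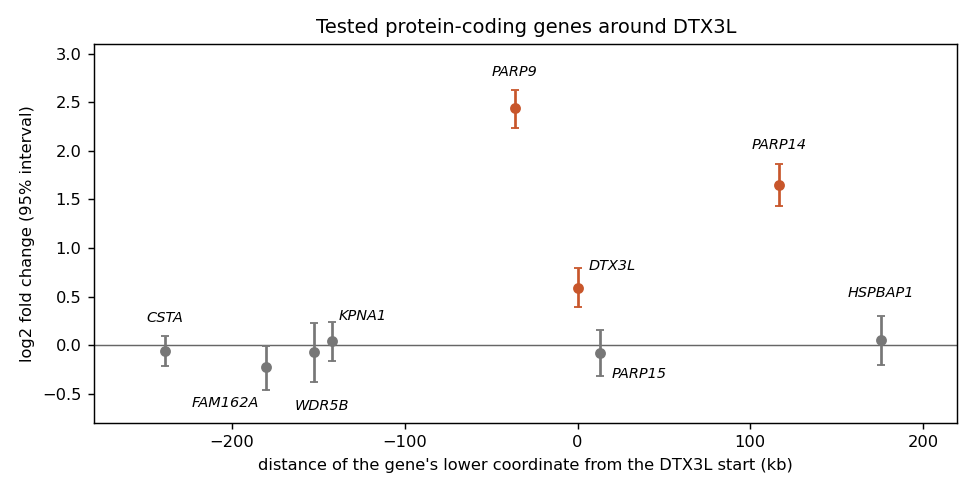
Log2 fold change with its 95% interval from limma for the 9 tested protein-coding genes around DTX3L, plotted by the distance (kb) of each gene's lower coordinate from the DTX3L start. PARP9 (2.44), DTX3L (0.59) and PARP14 (1.65) are in colour as called higher, and PARP15 between them lies at -0.08.

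Among the 8 family genes outside the members, TNKS2 and ZC3HAV1 rose, PARP16 fell and 5 did not pass. Those 5 were TIPARP, PARP11, PARP15, PARP6 and TNKS, with log2 fold changes of 0.2, 0.08, -0.08, -0.1 and -0.17. Over all genes tested, 18.5% were called higher and 23.8% lower, and the counts of this and the following lists stand beside those shares. The lists too were chosen with earlier results known, so their counts are descriptive only. TNKS2, a chain-building tankyrase, had 17.4 and 17.8 FPKM in control cells and 24.2 and 21.9 FPKM in knockdown cells (log2 fold change 0.37, limma adjusted p = 0.00495). ZC3HAV1, the antiviral zinc-finger protein also named PARP13, went from a mean of 13.6 to 16.4 FPKM (log2 fold change 0.26, limma adjusted p = 0.0296). PARP16, a PARP of the endoplasmic reticulum membrane, had 0.818 and 0.902 FPKM and then 0.241 and 0.234 FPKM (log2 fold change -0.59, limma adjusted p = 0.00728), and at such levels the log2(FPKM + 1) scale understates the change.

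Of 14 factors that read or erase ADP-ribose, or assist the PARPs, 10 were tested, with 2 higher, 2 lower and a median log2 fold change of 0.00, which is near the shares over all genes (18.5% and 23.8%). HPF1, the cofactor that directs PARP1 and PARP2 to serine residues, fell from a mean of 9.06 to 6.73 FPKM (log2 fold change -0.38, limma adjusted p = 0.00897), and CHD1L, a remodeler recruited by ADP-ribose chains, fell by 0.29 on the log2 scale. ADPRHL2, a hydrolase that removes ADP-ribose from serine, rose from 11.3 to 16 FPKM (log2 fold change 0.47, limma adjusted p = 0.00123), and MACROH2A1, a histone variant with a macrodomain, rose by 0.27. PARG, the main chain-degrading enzyme, had 7.44 and 8.47 FPKM in control cells and 7.01 and 6.41 FPKM in knockdown cells and did not pass (limma adjusted p = 0.101).

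Base excision and single-strand break repair genes went both ways, with a median log2 fold change of -0.04. Of the 20 tested, 3 were higher and 6 lower, near the shares over all genes (18.5% and 23.8%). OGG1 and POLB were among those that rose, by 0.38 and 0.25 on the log2 scale (limma adjusted p = 0.0167 and 0.032). UNG, which removes uracil from DNA, fell most, from 31.5 and 35.2 FPKM to 16.3 and 16 FPKM (log2 fold change -1.0, limma adjusted p = 1.13e-05). The flap endonuclease FEN1 and the replicative ligase LIG1 fell by 0.86 and 0.65 on the log2 scale. XRCC1, the scaffold recruited by PARP1, had 10.4 and 12.7 FPKM and then 8.51 and 8.35 FPKM (log2 fold change -0.41, limma adjusted p = 0.00919).

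Of 11 tested genes that make or use NAD, the substrate of all PARPs, 6 were higher, against 18.5% of all genes tested, and 2 lower, against 23.8%, with a median log2 fold change of 0.30. BST1 and CD38, both surface enzymes that cleave NAD, rose by 0.98 and 0.38 on the log2 scale, and BST1 had 12.1 and 12.8 FPKM in control cells and 26.2 and 24.7 FPKM in knockdown cells (limma adjusted p = 1.19e-05). NAMPT, the rate-limiting enzyme of NAD salvage, went from 4.71 FPKM in both sh-NC libraries to 7.06 and 6.63 FPKM (log2 fold change 0.46, limma adjusted p = 0.003). QPRT, which makes NAD precursor from tryptophan, fell from a mean of 37.3 to 24.4 FPKM (log2 fold change -0.59, limma adjusted p = 0.000341).

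In the interferon receptor and STAT list, 7 of 14 tested genes were higher, against 18.5% of all genes tested, and 1 lower, against 23.8%. The median log2 fold change was 0.20. STAT2 and IRF9, which act together at the response element after type I interferon, both rose. STAT2 had 12.1 and 11.9 FPKM and then 36.8 and 35.3 FPKM, and IRF9 had 3.99 and 4.13 FPKM and then 31.4 and 29.9 FPKM, with log2 fold changes of 1.51 and 2.64 (limma adjusted p = 4.61e-07 and 1.65e-08). USP18, a feedback inhibitor of the receptor, rose by 2.19 on the log2 scale and SOCS1, a JAK inhibitor, fell by 0.42. Of the receptor subunits and kinases, IFNGR2, JAK2 and IFNAR2 rose by 0.72, 0.34 and 0.28 on the log2 scale (limma adjusted p = 0.00126, 0.0184 and 0.0284), whereas IFNAR1, IFNGR1, JAK1 and TYK2 had log2 fold changes of 0.05, 0.09, -0.07 and 0.00 and did not pass.

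**Figure D4:**
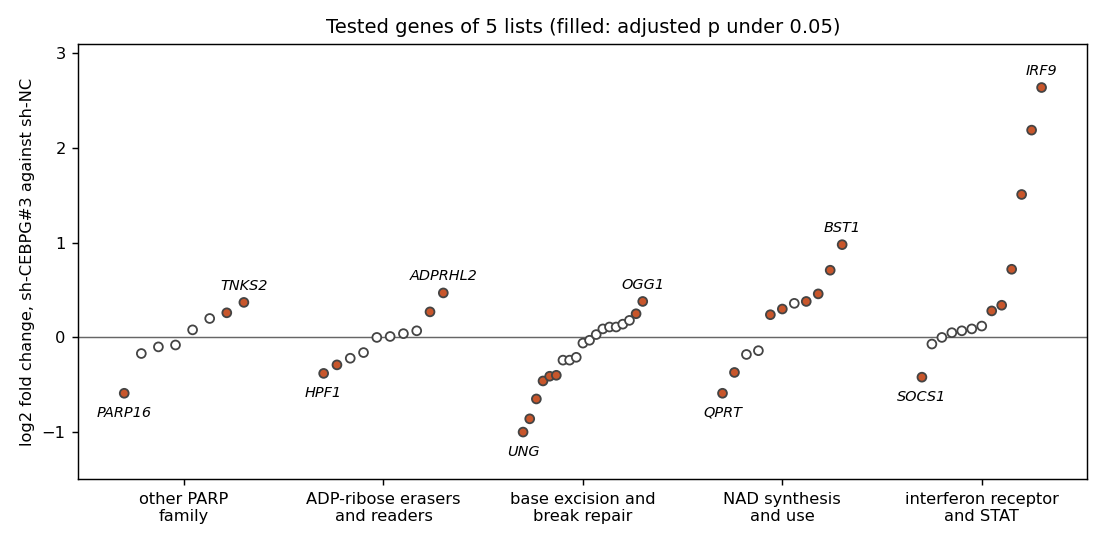
Log2 fold change (sh-CEBPG#3 against sh-NC) of the tested genes reported here from 5 lists around the PARP family, ordered within a list, with filled points for an adjusted p under 0.05 in limma and names at the lowest and highest point. The spread is widest in the interferon receptor and STAT list, from -0.42 for SOCS1 to 2.64 for IRF9.

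The mean of the log2 changes of PARP9 and DTX3L was 1.54 and 1.48 in the 2 sh-CEBPG#3 libraries relative to the sh-NC mean. That mean lies between the 2 genes and matches neither. Of the genes outside the members, SGK1, VAMP3, STAT2 and TNFSF13B had values over the 4 libraries that lay nearest to it by Euclidean distance, at 0.0309 to 0.048 on the log2 scale.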

How the data were processed

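MV4-11 RNA-seq libraries of 2 groups, sh-NC and sh-CEBPG#3, were analysed (2 libraries each, groups and replicate numbers from the sample titles). After read filtering and alignment (HISAT2 2.0.5 and hg38 per the submitters' processing notes), the authors deposited FPKM values per RefSeq transcript, and the program that computed FPKM and the annotation release are not given in the sources used here. Of 28780 transcripts, 199 without any value were left out. Values were summed per gene symbol, and genes averaging 0.5 FPKM or more were fitted as log2(FPKM + 1) in limma 3.58.1 (R 4.3.3, trend, no block, Benjamini-Hochberg adjustment), a scale that understates the change of low genes. The study used DESeq2, which needs counts, so it was not run. Of 1027 transcripts with values under 0.06 FPKM in both sh-NC libraries, 0.974% shared the commonest ratio between them, so whole reads were not recovered. The fit was also run on simulated data with changes larger than those of DTX3L, PARP1, PARP2, PARP3, PARP4 and PARP8. That run is no check on changes as small as theirs, among the members or in the lists.

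Members and gene lists were chosen with earlier results of these data known, and no list was tested as a set. The genes named are the members, CEBPG, STAT2, IRF9, PARG, HPF1 and XRCC1, the largest called rise and fall of each list, genes past an absolute log2 fold change of 1, and the 5 nearest to the mean profile of PARP9 and DTX3L, of which some are not reported here. Other genes named were chosen after their values were seen. Each fit was repeated with the most abundant transcript per gene, without each library, with the replicate block, with equal totals or quantile normalization, with pseudocounts of 0.1 or 0.01, and with the filter dropped or raised to 1 FPKM. Promoter sequences and gene positions are from RefSeq, GRCh38.p14 (Python 3.11.15), and 8 members matched a promoter.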

Additional observations from a re-analysis of the deposited data

How the results depend on the processing

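The 5 interferon-linked genes were called higher in limma under each of the 12 alternatives, with log2 fold changes of 2.42 to 2.86 for PARP9, 1.53 to 1.78 for PARP14, 0.89 to 0.96 for PARP10, 0.79 to 0.95 for PARP12 and 0.51 to 0.67 for DTX3L. Their median, 0.92, was 0.96 with pseudocounts of 0.1 and 0.01, 0.89 with equal totals, 0.94 with the most abundant transcript, and 0.89 to 0.94 with each library left out. That of the DNA-repair PARPs, -0.18, was -0.24 to -0.12 with each library left out. The count of members called lower, 1, was 0 with no filter, with the most abundant transcript and with the replicate block, 2 with equal totals, and 0 to 1 with each library left out. PARP8 (-0.03) turned to 0.64 with the most abundant transcript and to 0.03 without sh-CEBPG#3 replicate 2, whose leave-one-out range was -0.10 to 0.03. Over the 5 lists, 32 genes were called (20 higher, 12 lower), against 18 (12 higher, 6 lower) with the most abundant transcript, and 23 to 29 (12 to 19 higher, 10 to 12 lower) with each library left out, the lowest count of higher genes being without sh-CEBPG#3 replicate 1. The causes were not tested. The share of all genes called was computed for the main fit only. Shifts in these counts, and in those with the replicate block, therefore cannot be read as particular to the members or the lists. Across the genes tested, same-numbered libraries deviated with a correlation of 0.0606. That single value cannot exclude a shared culture or preparation, and how the replicates were made is not stated. With the replicate block 5 members and 28 list genes were called. A fit without 1 library assumes that the lone library varies like the other group. Of the 120 values of single members under these alternatives, 105 kept their direction and side of the threshold, 8 lost a call (each of them PARP2), 5 gained one and 2 changed sign. Without counts, the depth behind the low values, such as those of PARP9 and PARP3 in sh-NC cells, is unknown.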
